A study of Mus musculus with 2 samples.

Results

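The titin gene, Ttn, carried the longest and most populated cluster of FoxO3 peaks in the myotube list, with 198 of its 45457 peaks (0.436%). The members were chosen by position: a peak belonged to the set when its summit lay on mm9 chromosome 2 between 76539614 and 76822801, a window of 283 kb. That window is itself the extent of the cluster obtained when myotube peaks at most 12 kb apart are joined, and it was selected on the number of peaks it holds. The count and the density are therefore given as a description and support nothing. The assignment of the window to Ttn came with the selection rule and was not checked against an mm9 annotation, so the positions of exons, introns and the transcription start within it were not analysed here.

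Titin is the giant elastic protein of the sarcomere. A single molecule reaches from the Z-disc, where its amino end is anchored, through the I-band to the M-band, and it acts as a spring and as a scaffold for thick filament assembly. Its gene is made of a very large number of exons, most of which encode repeated immunoglobulin and fibronectin type III domains, and it is switched on strongly as myoblasts fuse. FoxO3 is a forkhead transcription factor that is held in the cytoplasm by insulin and growth factor signalling through Akt. In skeletal muscle it is best known for activating genes of protein breakdown during atrophy.

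Both libraries came from C2C12, an immortalised mouse myoblast line that fuses into multinucleate myotubes when serum is lowered. The myoblast library was taken at hour -24 relative to differentiation medium, when the cells were in DMEM with 10% FBS, and the myotube library at hour 72, in DMEM with 2% horse serum. The labels name no genetic change and no drug for either, and both were precipitated with the same anti-Foxo3 antibody. The sample labels name the cells as myoblasts at both times, and the name myotube for hour 72 comes from the design text. Each group had 1 library. There is therefore no replicate check on any value, and no test of a difference was made. Expression was not measured, so the identity of the cells was not checked against markers.

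RefSeq places Ttn on the minus strand, so the high-coordinate end of the window is on the 5′ side of the gene and positions are given below as distances from that end. The promoter is shown because the question of a promoter against the gene body turns on it. The RefSeq promoter of Ttn runs from 250 bases before the start to 50 after it, at chr2:76982498-76982797 on the minus strand of GRCm38.p6. That is another build than the mm9 of the peak lists, and its coordinates cannot be set against those of the peaks. Capitals mark the 1 match to the E-box, the element bound by MyoD and other basic helix-loop-helix factors.
Ttn promoter: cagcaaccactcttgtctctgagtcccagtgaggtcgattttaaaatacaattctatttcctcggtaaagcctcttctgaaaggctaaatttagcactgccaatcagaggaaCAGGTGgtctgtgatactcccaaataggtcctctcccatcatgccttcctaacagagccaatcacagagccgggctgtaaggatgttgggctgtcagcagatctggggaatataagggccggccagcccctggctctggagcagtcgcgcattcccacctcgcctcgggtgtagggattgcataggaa

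The E-box was searched as CANNTG on both strands and its match, CAGGTG, lies at bases 113 to 118 counted from the 5′ end of the printed run. A CANNTG match was present in 72.3% of the 32851 RefSeq promoters of this length, and CAGGTG or its reverse complement in 20.2%. The E-box CAGCTG, which overlaps the general form, had 0 matches and was present in 16.3% of promoters. The FoxO element GTAAACA, searched on both strands, had 0 matches, which says only that these letters are not in this window. It was present in 3.65% of promoters.

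Peaks in the Ttn window were individually weak. Their fold enrichment over local background, the authors' own value for each peak, ran from 3.87 to 17.07 with a median of 7.84 (quartiles 6.60 and 9.25, n = 198). The fold and the p-value of a peak together give the number of reads stacked at the summit, its pileup. The pileup ran from 8 to 48 reads with a median of 13 (quartiles 12 and 15.75). The background under them had a median of 1.58 reads. In 154 of the 198 peaks (77.8%) the pileup lay between 10 and 16 reads. The background most frequent in the myotube list was 1.51 reads, and at that level 1 read more raises the fold by 0.662. At pileups this small the reads of most peaks could not be told apart from the median of the window. The exact Poisson 95% interval of the pileup included the median of 13 reads in 187 of the 198 peaks and lay above it in 11. These intervals cover counting error of the pileup only and leave out the background, and they do not compare peaks in pairs. The peaks had also already passed the authors' threshold on the same reads.

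The peak of highest fold in the gene lay 189 kb from the 5′ side end, between 76633505 and 76633820. Its fold was 17.07, from 28 reads at the summit (Poisson interval 18.6 to 40.5). The next lay 208 kb from that end, between 76614697 and 76615200, at 16.52 and 25 reads (16.2 to 36.9). Both were far from either end of the window. The third by fold was the peak with the most reads in the window. It lay 2.83 kb from the 5′ side end, between 76819796 and 76820105, and its fold of 15.47 came from 48 reads (35.4 to 63.6) over a background of 3.10. Its −log10 q-value was 36.0. The peak ranked 4 by fold, between 76681284 and 76681517, had 14.68 and 25 reads. The Poisson intervals of the pileups of 28, 25 and 25 reads overlap, so their order in strength is not set by these counts.

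The remaining 6 of the 10 peaks of highest fold were spread over the gene. A pair at a fold of 13.22, each with 20 reads, began at 76597147 and 76612558, in the 3′ side part of the window. The peak from 76767892 to 76768220, 54.8 kb from the 5′ side end, had a fold of 12.57 and 39 reads over a background of 3.10. The last 3 were tied at a fold of 12.56 with 19 reads each and began at 76596180, 76693553 and 76766201, which is 227, 129 and 56.1 kb from the 5′ side end. None of the 198 peaks reached a fold of 20 (0%, Wilson interval up to 1.90%). That fold was reached by 0.534% of the 4306 peaks in other clusters of 20 or more and by 6.0% of the 13876 isolated peaks.

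Fold enrichment had little steady rise or fall along the gene, and the values below would not show every other pattern. Across the 198 peaks, fold against distance from the 5′ side end had a Pearson r of -0.07 and a Spearman rho of -0.05, given as a description because the peaks share a library and a gene. Width against the same distance had a rho of -0.07. Of 3 equal parts of the window (94.4 kb each), the one on the 5′ side held 56 peaks (Poisson interval 42.3 to 72.7) with a median fold of 8.0 (quartiles 6.93 and 9.67). The middle part held 64 (49.3 to 81.7) with a median of 7.40 (6.33 and 8.70), and the one on the 3′ side held 78 (61.7 to 97.3) with 7.93 (6.45 and 9.25). The intervals of the 3 counts overlap, which does not show that the counts are equal, and no test was made. A fold of at least 10 was reached by 13 peaks of the 5′ side part (23.2%, Wilson interval 14.1% to 35.8%), 7 of the middle (10.9%, 5.40% to 20.9%) and 14 of the 3′ side part (17.9%, 11.0% to 27.9%). These intervals overlap too, with the same limit. Over the whole window 34 of 198 peaks (17.2%, Wilson interval 12.6% to 23.0%) reached that fold, where 35.4% of the whole myotube list did.

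On a finer scale the peaks were uneven. Among the 28 full bins of 10 kb counted from the 5′ side end, the number of peaks ran from 2 to 12 with a median of 7, and the share of bases under a peak from 4.04% to 28.4% with a median of 16.5%. The most peaks, 12, lay 190 to 200 kb from the 5′ side end. The 50 kb from 190 to 240 kb held between 9 and 12 peaks in every bin. The sparsest bins held 2 or 3 peaks and lay at 10 to 30 kb, 80 to 90 kb, 150 to 160 kb and 270 to 280 kb. The median fold of a bin moved within 5.71 to 10.76, and the highest value came from a bin of 3 peaks at 10 to 20 kb.

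**Figure D1:**
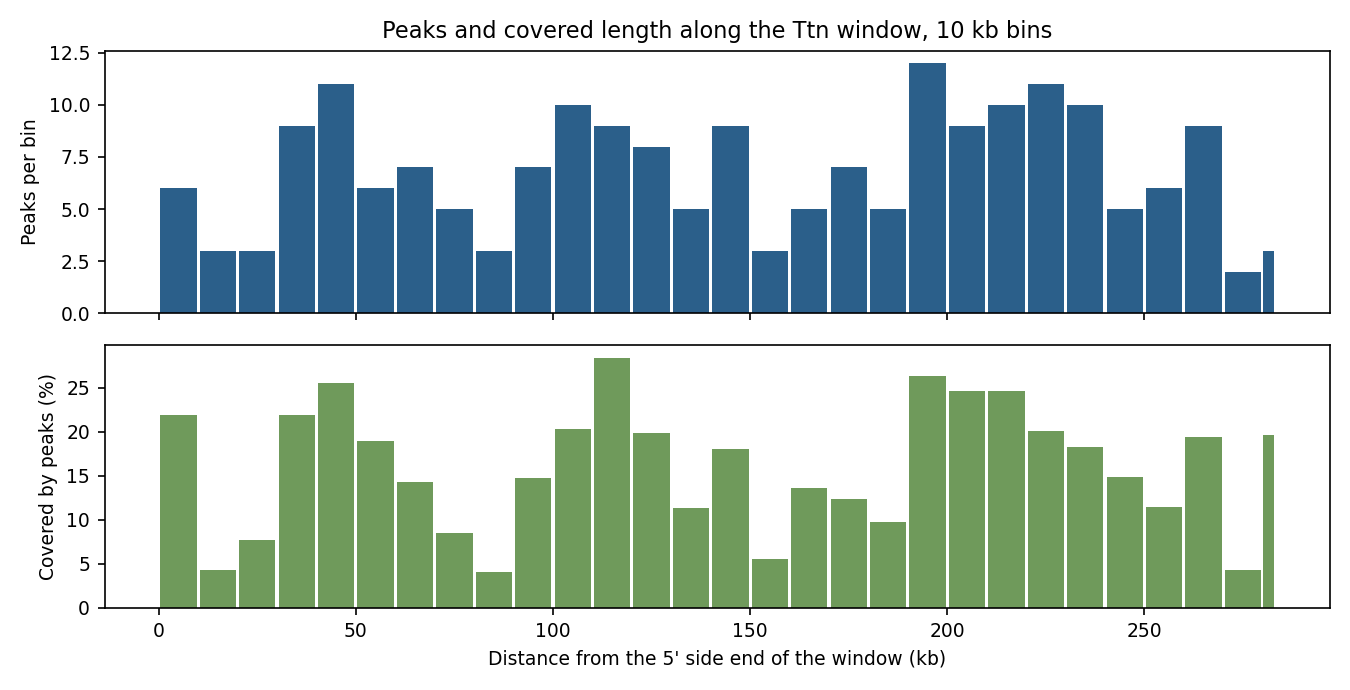
Number of myotube peaks per bin (upper panel) and percentage of bases under a peak (lower panel) in 10 kb bins along the Ttn window, from the 5′ side end on the left; the last bin is a partial one. Peak numbers run from 2 to 12 in the full bins, with the longest dense stretch at 190 to 240 kb and sparse bins at 10 to 30, 80 to 90, 150 to 160 and 270 to 280 kb.

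Adjacent peaks lay close together but at no fixed interval. The distance between adjacent summits had a median of 1171 bp (quartiles 592 and 1889, n = 197), a mean of 1436 bp and an SD of 1203 bp over pairs. It was under 500 bp for 31 pairs, 500 to 1000 bp for 56, 1000 to 2000 bp for 67, 2000 to 5000 bp for 39 and 5000 bp or more for 4. The free stretch between the edges of adjacent peaks had a median of 944 bp, and the joining at 12 kb caps it at that length. The fold or width of a peak said little about that of its neighbour. From one peak to the next, fold had a Pearson r of 0.04 and width also 0.04 (n = 197 pairs each, descriptions only).

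**Figure D2:**
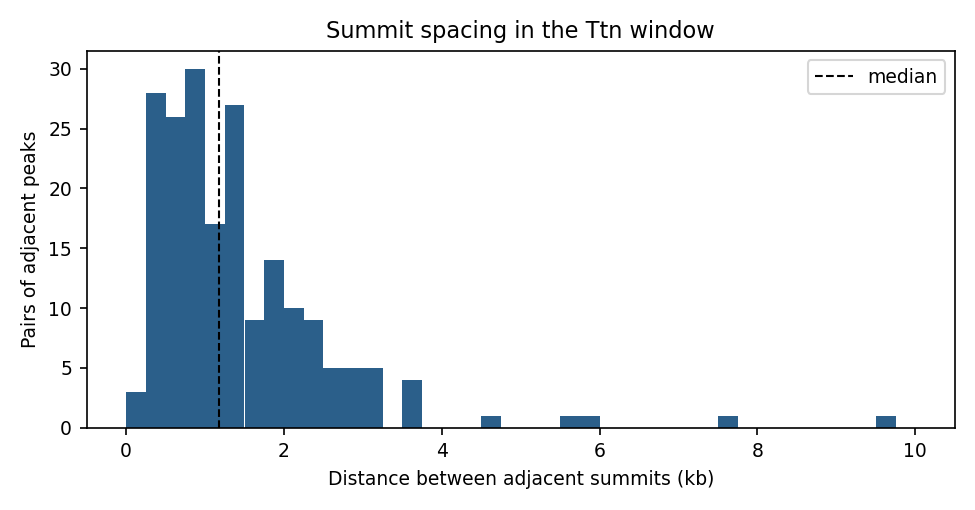
Histogram of the distance between adjacent summits in the Ttn window (kb, horizontal axis, in steps of 0.25 kb) with the number of pairs on the vertical axis and the median as a dashed line. Most of the 197 distances are under 2 kb, around a median of 1171 bp, and the longest is 9539 bp.

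Where summits followed each other at less than 1 kb, the runs were short. The longest held 7 peaks within 3509 bp, on chromosome 2 from 76604575 to 76608083, with folds of 3.87 to 11.24 and 46.4% of the bases under a peak. In all, 5 runs held 5 or more peaks, together 30 of the 198, and 68 peaks had no neighbouring summit within 1 kb. Inside a cluster joined at 12 kb no free stretch can be longer than that. The widest stretch without a peak was 9.41 kb. It lay 22.9 to 32.3 kb from the 5′ side end, between a peak ending at 76790458 (fold 5.03, 13 reads) and one beginning at 76799866 (fold 7.27, 11 reads). The second, of 7.24 kb, lay near the other end, between 76542530 and 76549774.

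The peaks were narrow, like those of the list as a whole. Their median width was 195 bp (quartiles 144.25 and 273, highest 613), against 186 bp (142 and 257) over all 45457 peaks. The smallest listed width, 122 bp, was found in 32 of 198 (16.2%, Wilson interval 11.7% to 21.9%), where 12.0% of the whole list had it. A width of at least 300 bp was found in 37 (18.7%, 13.9% to 24.7%), where 16.7% of the list had it. Both intervals include the share of the list. The widest peak, of 613 bp from 76709420 to 76710032, had a fold of only 6.77 and 14 reads. The next widest, 570 bp from 76766201 and 569 bp from 76815052, had folds of 12.56 and 12.33. Within the window, width and fold went together weakly, with a Spearman rho of 0.26 as a description. Together the peaks covered 45160 bp, or 15.9% of the window.

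Against peaks that stood alone, those in Ttn had fewer reads and lower folds at a lower background. The 13876 isolated myotube peaks, with no other within 12 kb, had a median fold of 9.02 (quartiles 7.09 and 11.9), a median pileup of 19 reads and a median background of 2.07 reads. Their median width was 176 bp (138 and 234). The level of 10 in −log10 q-value was reached by 30 of the 198 Ttn peaks (15.2%, Wilson interval 10.8% to 20.8%), by 44.1% of the isolated peaks and by 41.4% of the whole list. Peaks in the other clusters of 20 or more resembled those of Ttn on this measure, at 16.8%, and 19.1% of them had a fold of at least 10 against 17.2% in Ttn. Their medians were also close to those of Ttn, with a fold of 7.93 against 7.84 and a pileup of 14 reads against 13. The median background was 1.58 reads in both, so the contrast with isolated peaks is not particular to Ttn. No Ttn peak had a background above 3 times 1.51 reads (0%, Wilson interval up to 1.90%). That level was passed by 0.790% of the peaks in the other clusters of 20 or more and by 3.58% of the list. These sets of peaks come from 1 library, and how far they would vary from culture to culture is not known.

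The 2 clusters next in number of peaks differed from Ttn to unlike degrees. The cluster with the next most peaks lay on chromosome 2 from 51990079 to 52206953 and held 181. Its peaks had a median fold of 8.38, a median pileup of 15 reads and a median width of 211 bp, with a median summit spacing of 778 bp against 1171 bp in Ttn. The cluster ranked 3, on chromosome 4 between 32743885 and 32865054, held 146 peaks. Their medians were a fold of 9.02, 16 reads, a width of 263.5 bp and a spacing of 623 bp. A fold of at least 10 was reached by 35.6% of its peaks (Wilson interval 28.3% to 43.7%), and 39.0% (31.5% to 47.1%) were at least 300 bp wide, both above the intervals for Ttn. In the cluster ranked 2 these shares were 20.4% (15.2% to 26.9%) and 28.7% (22.6% to 35.7%), with intervals that overlap those of Ttn. All these intervals cover counting error only. The peaks of a cluster share a library and a locus, and no test between clusters was made. By peaks per 10 kb the cluster ranked 3 was number 1 of the 107 clusters of 20 or more. In that cluster 38.8% of the bases lay under a peak, against 15.9% in Ttn. Among the 107 clusters of 20 or more peaks the Ttn window ranked 1 by length and by number of peaks. It ranked 38 by peaks per 10 kb (6.99), 63 by median fold, 49 by median width and 40 by share of bases covered. The other 106 clusters had median folds with quartiles of 7.71 and 8.27 and densities with quartiles of 4.30 and 8.05 peaks per 10 kb, and the Ttn window lay within both ranges.

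**Figure D3:**
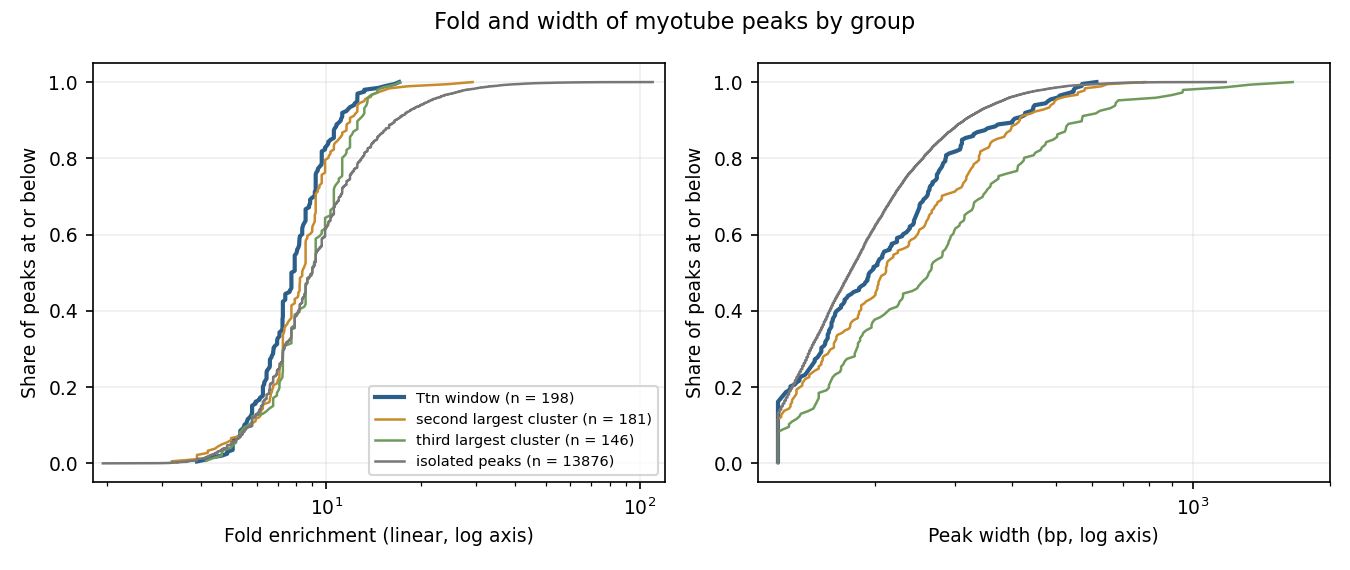
Cumulative share of peaks (vertical axis) by fold enrichment (left) and by width in bp (right), both on log axes, for the 198 Ttn peaks, the clusters ranked 2 and 3 by number of peaks, and the 13876 isolated peaks of the myotube list. The Ttn curve ends at a fold of 17.07 where the isolated peaks reach 109.72, and in width it runs between the isolated peaks and the other clusters over most of its range.

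**Figure D4:**
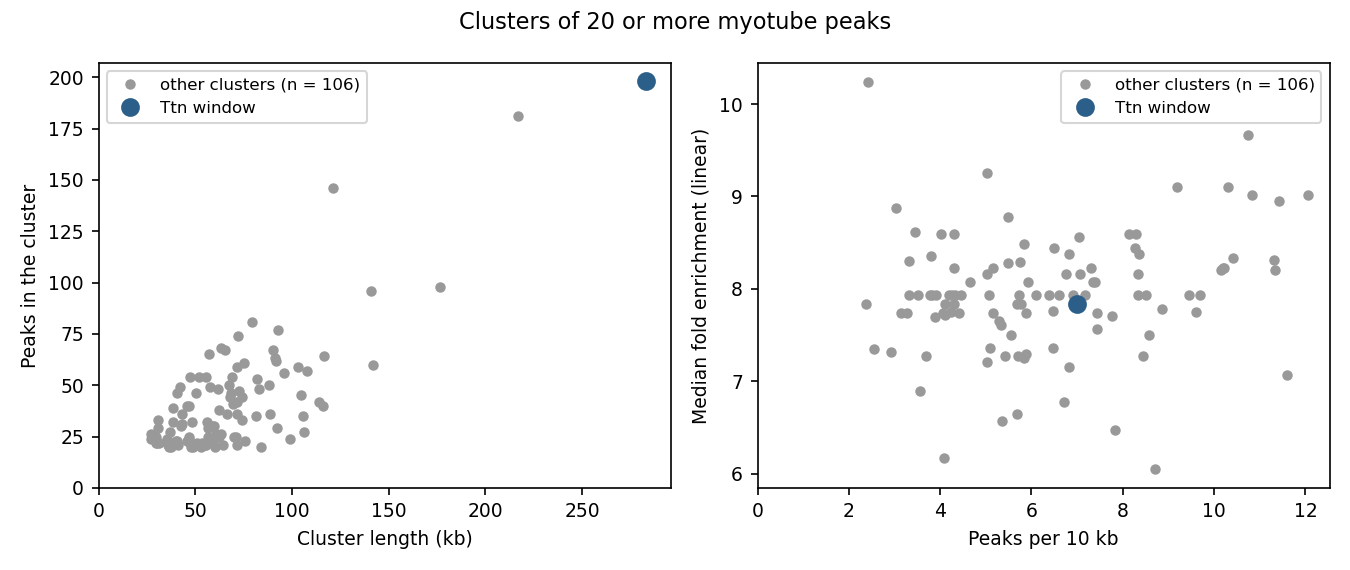
The 107 clusters of 20 or more myotube peaks, by length in kb and number of peaks (left) and by peaks per 10 kb and median fold (right); the large blue point is the Ttn window. It stands at the far end for length (283 kb) and number (198), and among the other clusters for density (6.99 peaks per 10 kb) and median fold (7.84).

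Peaks were sparser beyond both ends of the window, more so on the 3′ side. The window is the cluster with the most peaks and ends at a gap of over 12 kb on each side. Sparser flanks are therefore largely set by that choice and are no result about Ttn. Within 200 kb of the window on the 3′ side there were 3 myotube peaks, or 0.150 per 10 kb. On the 5′ side there were 26, or 1.30 per 10 kb. The first member on the 3′ side, from 76539614 to 76539860, had a fold of 6.46 and 11 reads, and the nearest peak outside, 14.2 kb away from 76525033 to 76525455, had 18.65 and 30 reads. The last member on the 5′ side, from 76822520 to 76822801, had a fold of 9.67 and 20 reads. The nearest peak beyond it lay 28.7 kb away, from 76851530 to 76851784, with a fold of 9.26 and 16 reads. The 5′ flank also held 2 peaks with a fold above any in the window. They were at 76871770 to 76872023 (fold 29.99, 70 reads) and 76964869 to 76965322 (fold 22.93, 68 reads), 49.0 and 142 kb beyond the end. In RefSeq's GRCm38.p6 gene order the protein-coding neighbours of Ttn are Ccdc141 on its 5′ side and Plekha3 on its 3′ side. The flanking peaks were not assigned to either.

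In myoblasts the gene held no listed peak. Of the 501 myoblast peaks 34 lay on chromosome 2 and 0 in the window, and none lay within 500 kb of it. Over the whole myotube list 0.224% of peaks shared at least 1 bp with a myoblast peak, so an absence of shared peaks is the usual case and is no result about Ttn. The nearest on either side were at 60655426 to 60655501, 15.9 Mb away (fold 12.84, 7 reads), and at 91204442 to 91204517, 14.4 Mb away (fold 16.3, 8 reads), and neither overlapped a myotube peak. The lowest fold listed in the myoblast library at its most frequent background of 0.44 reads was 13.52. In the myotube library the lowest fold at its most frequent background of 1.51 reads was 5.29. Folds of the 2 lists are therefore not on one scale and were not compared. The lists were called separately and their depths are unknown, so a difference in FoxO3 occupancy at Ttn cannot be read from them.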

How the data were processed

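FoxO3 ChIP-seq was deposited as 1 peak list per library for C2C12 cells at hour -24 and hour 72. Per the labels' protocols, chromatin was sonicated before Illumina paired-end library construction. Per the submitters' processing notes, the tool was MACS2 2.1.0 and the build mm9. No aligner, control library or calling threshold is given in the sources used here. The lists are in narrowPeak layout, per the file headers: the authors deposited a fold enrichment (a linear ratio), −log10 p- and q-values, a score (the −log10 q-value times 10 without its decimals) and a summit offset in bp for each peak.

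Pileups were recovered as the whole number of reads whose Poisson tail matched the deposited fold and p-value within 0.02 on the log10 scale, taking fold as pileup over background. This gave a value for all 198 members and 45452 of 45457 myotube peaks. The other 5 had p-values too small to compute. The recovery was tested on simulated data. Total depth is unknown. Shares carry Wilson and counts exact Poisson 95% intervals, for counting error only. Coordinates are counted from 1.

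The members, the comparison sets and the tests were chosen with earlier results of these data known. Named peaks were the 10 of highest fold, the 3 widest, the first and last, those beside the widest gap and the nearest outside; the runs, the stronger flanking peaks and the nearest myoblast peaks were added after their values were seen. Planned comparisons with exons and with other sarcomere genes were not made, for want of an mm9 annotation. Promoters and gene order came from RefSeq (GRCm38.p6). Python 3.11.15 was used with matplotlib 3.10.9, scipy 1.17.1, pandas 2.3.3 and numpy 2.4.6.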

Additional observations from a re-analysis of the deposited data

How the results depend on the processing

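Every value rests on 1 library, and pileups of 8 to 48 reads limit what can be said of single peaks. Of 24 alternative values, 11 moved, and 13 lay within the reported value's interval (for counts, within 1.5 times of it). A −log10 q-value of at least 5 left 129 peaks in the Ttn window, with a median fold of 8.81, a median summit spacing of 1668 bp and 11.2% of the window covered. At 10 or more, 30 peaks were left, with a median width of 262 bp, a median fold of 11.7, a spacing of 5047 bp and 3.24% covered. Fewer and stronger peaks follow from these thresholds by construction. Without peaks of the smallest width the median width was 223 bp, and without the outermost 10 kb at each end 16.1% was covered, where the interval over bases is very narrow. Joining peaks within 100 or 300 bp left 194 and 161. The correlation of fold with position stayed between -0.08 and -0.03. The myoblast count was 0 with the window widened by 50 and by 500 kb. The planned overlap with exons was not run. No paired analysis was possible because the 2 time points have a single library each.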

Other observations

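At the 5′ side end of the window, values picked out after they were seen, the 6 peaks within 10 kb had pileups of 20, 16, 15, 48, 27 and 21 reads, all above the median of 13 reads for the window, as were 98 of the 198 members (49.5%). Backgrounds were also higher, at 2.07, 2.07, 1.83, 3.10, 4.13 and 1.70 reads in the same order, all above the window median of 1.58. Their folds, in that order, were 9.67, 7.74, 8.2, 15.47, 6.53 and 12.33, on both sides of the window median of 7.84. The following 20 kb, from 10 to 30 kb, also held 6 peaks, with pileups of 14, 19, 18, 16, 19 and 11 reads, and the median folds of its 2 bins were 10.76 and 9.19 against 8.93 in the 10 kb at the end. The part of background in these values was not tested.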
